A study of Homo sapiens with 8 samples.

Results

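TEAD1 is a DNA-binding factor of the TEAD family, and in HuCCT1 cells a minority of its peaks lay in runs of close neighbours. The 540 stretches described here are runs of at least 5 TEAD1 peaks in which neighbouring peak centres were at most 12500 bp apart, each taken from the start of its first peak to the end of its last. They were chosen by the positions of TEAD1 peaks alone, from 25801 groups that this joining rule made of the whole TEAD1 list, single peaks included. Stretches held 3322 of the 38186 TEAD1 peaks (8.70%), and 18414 TEAD1 peaks were joined to no other. Whether TEAD1 peaks lie closer together than random placing would give was not tested. The size and spacing of the stretches follow from the rule and are given as a description.

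HuCCT1 is an established human line derived from cholangiocarcinoma, a cancer of the bile ducts. From it, 8 chromatin immunoprecipitation sequencing libraries were made, 1 per antibody or control, and 5 of them had peak lists: TEAD4, HA-YAP5SA, YAP, TAZ (also called WWTR1) and TEAD1. All 5 came from formaldehyde-fixed cells of this line, for which the labels give no treatment and no other genotype. HA is an epitope tag, and the protocol in the labels lists an HA antibody, through which HA-YAP5SA was precipitated. The labels do not say how the tagged form was brought into the cells, or whether the other libraries came from cells that carried it. Libraries of input DNA, of IgG and of GFP are not analysed here. With 1 library per antibody there was no replicate, so no difference below was tested. The sequencing depth is unknown, and a range in brackets after a percentage is an exact (Clopper-Pearson) 95% interval that covers counting error over peaks or stretches only. Peaks of a stretch are neighbours in 1 library and are not independent.

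TEAD factors carry the DNA-binding domain through which the Hippo pathway coactivators YAP and TAZ reach chromatin. YAP5SA is a form of YAP in which the serines phosphorylated by LATS kinases are replaced by alanine, so that it escapes the inhibition that keeps YAP out of the nucleus. TEAD sites are known to lie mostly at enhancers away from promoters, and clustered sites can belong to 1 regulatory region or to several. A joining distance of 12500 bp is widely used to link neighbouring enhancers, but these lists hold no histone mark or expression value, so the stretches are given no enhancer class. All positions are in the hg19 build. No genome or gene annotation of that build was used, so the stretches are named by position and not by gene.

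Stretches were mostly short runs just past the threshold. They held a median of 5 TEAD1 peaks (interquartile range 5 to 7, highest 28). Of the 540, 276 (51.1%) held 5 peaks, 120 held 6, 64 held 7 and 30 held 10 or more. The span had a median of 23.6 kb (quartiles 18.1 and 30.5 kb) and ran up to 132 kb, with 14 stretches under 10 kb and 20 over 50 kb. TEAD1 peaks covered a median of 15.7% of the span, and neighbouring centres lay a median of 4.12 kb apart (quartiles 1.83 and 7.34 kb). Together the stretches spanned 13796 kb.

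**Figure D1:**
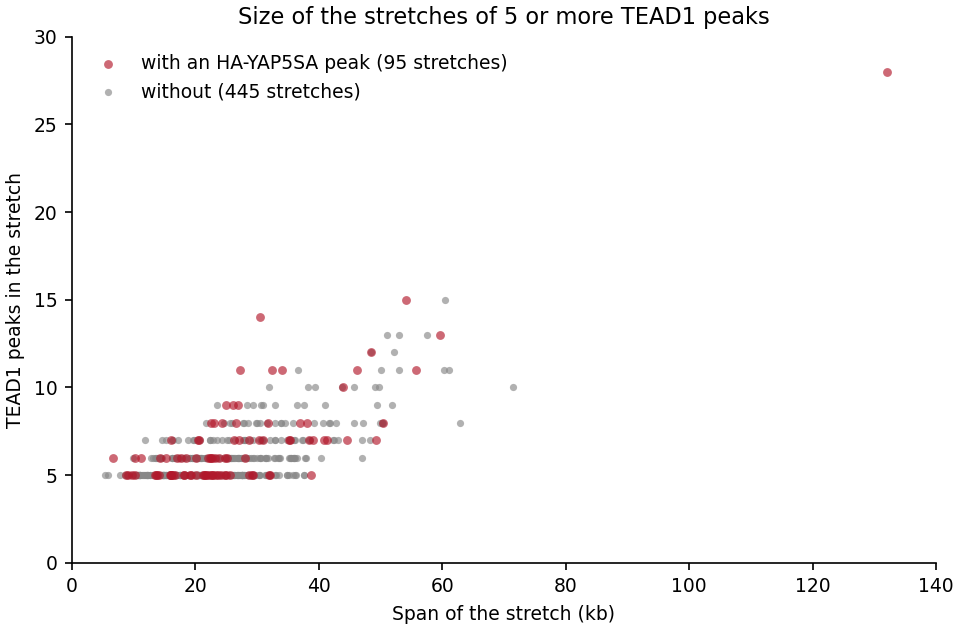
Span in kb (horizontal axis) and number of TEAD1 peaks (vertical axis) of each of the 540 stretches, 1 point per stretch. Red points mark the 95 stretches with an HA-YAP5SA peak and grey points the 445 without, and the single point at 28 peaks and 132 kb lies far from the rest.

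Members just inside the threshold had a longer span and a higher top score than groups just outside it, which partly follows from the extra peak. The 276 stretches of 5 peaks had a median span of 20.5 kb and a median highest TEAD1 score of 670, and the 587 groups of 4 peaks had 15.5 kb and 543. The median score over all their TEAD1 peaks was 211 in stretches of 5 and 198 in groups of 4. Here and below, a score is the value the authors gave each peak, on a scale that is not stated and that starts at about 80 in every list. The largest gap inside any stretch was 12.497 kb. Another TEAD1 peak lay between 12500 bp and 15 kb away beside 101 stretches and beside 84 of the groups of 4, so for these the chosen distance decided the size.

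Most stretches also held TEAD4, the paralogue of TEAD1, but at a minority of their TEAD1 peaks. TEAD4 peaks lay in 508 of the 540 stretches (94.1%, 91.7 to 95.9%), with a median of 2 per stretch and at most 16. Of the 3322 TEAD1 peaks in stretches, 1309 overlapped a TEAD4 peak by at least 1 bp (39.4%, 37.7 to 41.1%), against 10359 of 34864 outside (29.7%, 29.2 to 30.2%) and 30.6% of all TEAD1 peaks. TEAD4 lay on at least 2 TEAD1 peaks in 392 stretches (72.6%), and on more than 50% of them in 144 (26.7%). TEAD4 lay on every TEAD1 peak in 3 stretches, on chromosome 1 (94188640 to 94220607, 5 TEAD1 peaks), chromosome 10 (75646824 to 75669378, 6 TEAD1 peaks) and chromosome 11 (118781096 to 118793316, 5 TEAD1 peaks). Of the 1341 TEAD4 peaks inside stretches, 3 met no TEAD1 peak (0.224%, 0.0462 to 0.652%), against 350 of 10847 outside (3.23%, 2.90 to 3.58%). Stretches are runs of TEAD1 peaks by their rule, so this share partly follows from how they were chosen.

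Tagged YAP5SA was found in about 1 stretch in 6. At least 1 HA-YAP5SA peak lay in 95 of the 540 stretches (17.6%, 14.5 to 21.1%). Of these, 83 held 1 such peak, 9 held 2, 2 held 3 and 1 held 4. HA-YAP5SA overlapped 109 of the 3322 TEAD1 peaks in stretches (3.28%, 2.70 to 3.94%), against 678 of 34864 outside (1.94%, 1.80 to 2.10%) and 2.06% of all TEAD1 peaks. All 109 also overlapped TEAD4 (100%, 96.7 to 100%), against 654 of the 678 outside (96.5%, 94.8 to 97.7%). Among TEAD1 peaks with TEAD4, HA-YAP5SA lay on 8.33% (6.89 to 9.96%) of the 1309 in stretches, against 6.31% (5.85 to 6.80%) of the 10359 outside. Stretches held 111 of the 847 HA-YAP5SA peaks (13.1%, 10.9 to 15.6%), 1341 of the 12188 TEAD4 peaks (11%, 10.5 to 11.6%) and 8.70% of TEAD1 peaks.

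The YAP antibody reached few stretches and the TAZ antibody none. YAP peaks lay in 7 of the 540 stretches (1.30%, 0.523 to 2.65%), each with 1 YAP peak. YAP overlapped 7 of the 3322 TEAD1 peaks in stretches (0.211%, 0.0848 to 0.434%), against 73 of 34864 outside (0.209%, 0.164 to 0.263%) and 0.21% of all TEAD1 peaks, so the shares inside and outside were alike to within counting error. No TAZ peak lay in a stretch, which allows a share of up to 0.556% of stretches. TAZ overlapped 0% of all TEAD1 peaks, so its absence from stretches is that of the whole list.

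The share of TEAD1 peaks with a partner was also compared along the number of peaks joined. For TEAD4 it was 26.5% (25.9 to 27.2%) among single TEAD1 peaks, 31.9% in pairs, 33.6% in groups of 3 and 38.1% (36.1 to 40.1%) in groups of 4. Within stretches it was 38.9% at 5 peaks, 39.6% at 6 to 7, 39.4% at 8 to 9 and 40.6% (35.4 to 45.8%) at 10 or more, with intervals that overlap throughout. For HA-YAP5SA the share was 1.60% (1.42 to 1.79%) among single peaks, 2.30% in pairs and in groups of 3, and 2.56% in groups of 4. In stretches it was 3.12% at 5 peaks, 3.25% at 6 to 7, 2.90% at 8 to 9 and 4.44% (2.56 to 7.12%) at 10 or more. Groups of 4 and stretches of 5 thus had overlapping intervals for both partners.

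**Figure D2:**
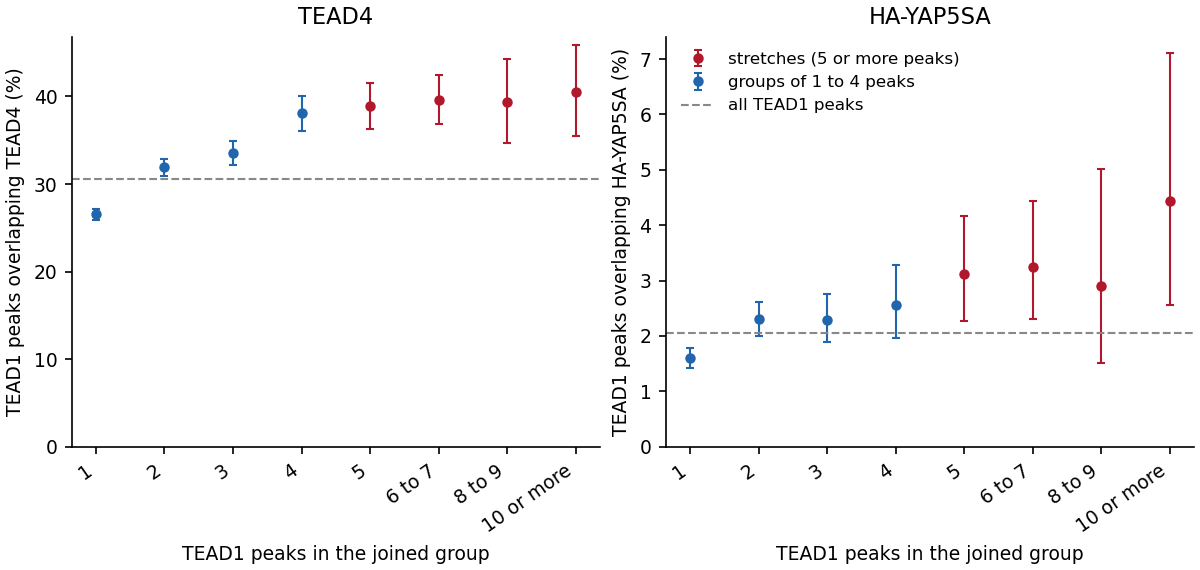
Percent of TEAD1 peaks that overlap TEAD4 (left) or HA-YAP5SA (right) against the number of TEAD1 peaks in the joined group, with exact 95% intervals; red marks stretches, blue smaller groups, and the dashed line all TEAD1 peaks. The TEAD4 share is 26.5% for single peaks and between 38.1% and 40.6% from groups of 4 upward.

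Counted per stretch, HA-YAP5SA was found more often in longer runs, which have more TEAD1 peaks that could carry it. It lay in 39 of the 276 stretches of 5 peaks (14.1%, 10.2 to 18.8%), in 34 of 184 with 6 to 7 (18.5%), in 11 of 50 with 8 to 9 (22%) and in 11 of 30 with 10 or more (36.7%, 19.9 to 56.1%). In groups of 4 it lay in 58 of 587 (9.88%, 7.59 to 12.6%). Per TEAD1 peak the HA-YAP5SA share was 3.12% (2.26 to 4.17%) at 5 peaks and 4.44% (2.56 to 7.12%) at 10 or more. The median highest TEAD1 score ran along the same classes, at 543 in groups of 4, 670 at 5 peaks, 823 at 6 to 7, 894 at 8 to 9 and 1126 at 10 or more, and its part in the HA-YAP5SA share was not tested. In longer runs the highest score is also taken from more peaks. The median score over all TEAD1 peaks of the class was 211 at 5 peaks and 230 at 10 or more. TEAD4 lay in 91.7% of stretches of 5 peaks, 96.2% at 6 to 7, 100% at 8 to 9 and 93.3% at 10 or more.

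TEAD1 scores in stretches were higher than elsewhere, and partner shares followed the score. The median TEAD1 score was 216 (quartiles 123 and 424) in stretches, against 175 (quartiles 113 and 326) outside, and the median width was 608 bp in stretches, against 548 bp outside. The highest decile of TEAD1 score held 15.7% of the TEAD1 peaks in stretches, against 9.46% of those outside. In that decile TEAD4 lay on 97.7% (96.0 to 98.8%) of TEAD1 peaks in stretches, against 96.9% outside. In the lowest decile these shares were 2.41% (0.972 to 4.89%) in stretches and 2.18% outside.

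Compared within score deciles, the difference between stretches and other TEAD1 peaks was smaller. The TEAD4 share was higher in stretches in all 10 deciles, but in 8 of them the share outside lay within the interval of the stretches. The clearest gap was in the sixth decile, at 26.2% (21.3 to 31.6%) in stretches, against 17.9% outside. TEAD1 peaks outside stretches with the same mix of score deciles would give 37.1% with TEAD4, so the 39.4% in stretches was 2.29 percentage points higher (0.624 to 3.98, from the interval of the stretches). That interval included 0 when peaks were matched by deciles of width instead (1.62 points, -0.0503 to 3.30) or when each list was limited to peaks at or above its median score (1.24 points, -3.2 to 5.79). For HA-YAP5SA the same calculation gave 3.04%, and the 3.28% in stretches was 0.242 points higher (-0.338 to 0.905). With 20 score bins in place of deciles the difference for HA-YAP5SA was 0.0345 points, and with peaks at or above the median score it turned to -0.974 points (-2.24 to 0.908). The HA-YAP5SA share was higher in stretches in 3 deciles and lower in 5, and in all 10 the share outside lay within the interval of the stretches. It was 19.2% (15.9 to 22.8%) in the highest decile in stretches, against 17.0% outside, and 1.05% (0.286 to 2.66%) in the ninth decile in stretches, against 2.10% outside.

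**Figure D3:**
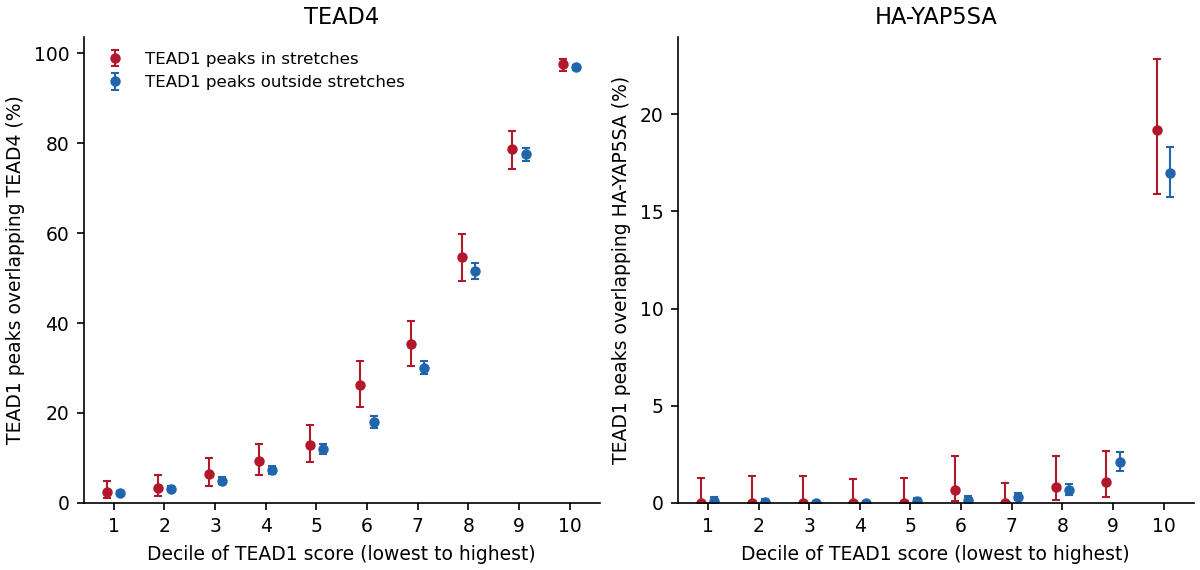
Percent of TEAD1 peaks overlapping TEAD4 (left) or HA-YAP5SA (right) in each decile of TEAD1 score, lowest to highest, for TEAD1 peaks in stretches (red) and outside (blue), with exact 95% intervals. Both sets climb together, to 97.7% and 96.9% with TEAD4 and to 19.2% and 17.0% with HA-YAP5SA in the tenth decile.

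TEAD4 peaks in stretches had higher scores than those elsewhere, and HA-YAP5SA peaks had similar scores. For TEAD4 the median in stretches was 185 (quartiles 118 and 319), against 160 (quartiles 109 and 265) for TEAD4 peaks outside, and the median width was 386 bp in stretches, against 348 bp outside. For HA-YAP5SA the median score in stretches was 111 (quartiles 89.4 and 165), against 114 (quartiles 92.6 and 174) outside, and the median width was 238 bp in stretches, against 221 bp outside. The highest HA-YAP5SA score in a stretch, 559, was on chromosome 20 (60936845 to 60937292), on the top TEAD1 peak of a stretch of 7. The list's highest HA-YAP5SA score, 1028, lay outside stretches.

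Within a stretch the TEAD1 peaks were unequal. The highest TEAD1 score of a stretch had a median of 767 (quartiles 502 and 1174) and was a median of 1.61 times the second highest and 3.11 times the stretch's median score. Ranked by TEAD1 score inside their stretch, TEAD4 lay on 87.0% (83.9 to 89.8%) of the top peaks, 60.7% at rank 2, 41.9% at rank 3, 26.9% at rank 4, 13.9% at rank 5 and 10.5% at lower ranks. HA-YAP5SA lay on 14.4% (11.6 to 17.7%) of the top peaks, 3.15% at rank 2, 1.85% at rank 3, 0.556% at rank 4 and 0 of the 540 at rank 5, where a count of 0 allows up to 0.556%. TEAD1 peaks outside stretches in the same of 20 score bins as the top peaks would give 84.8% with TEAD4 and 13.0% with HA-YAP5SA, both within the intervals of the stretches. With score deciles the value for HA-YAP5SA was 11.3%, just below the interval. At rank 4 the 26.9% with TEAD4 (23.2 to 30.8%) was above the values from outside, which were 22.2% with deciles and 21.9% with 20 bins.

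**Figure D4:**
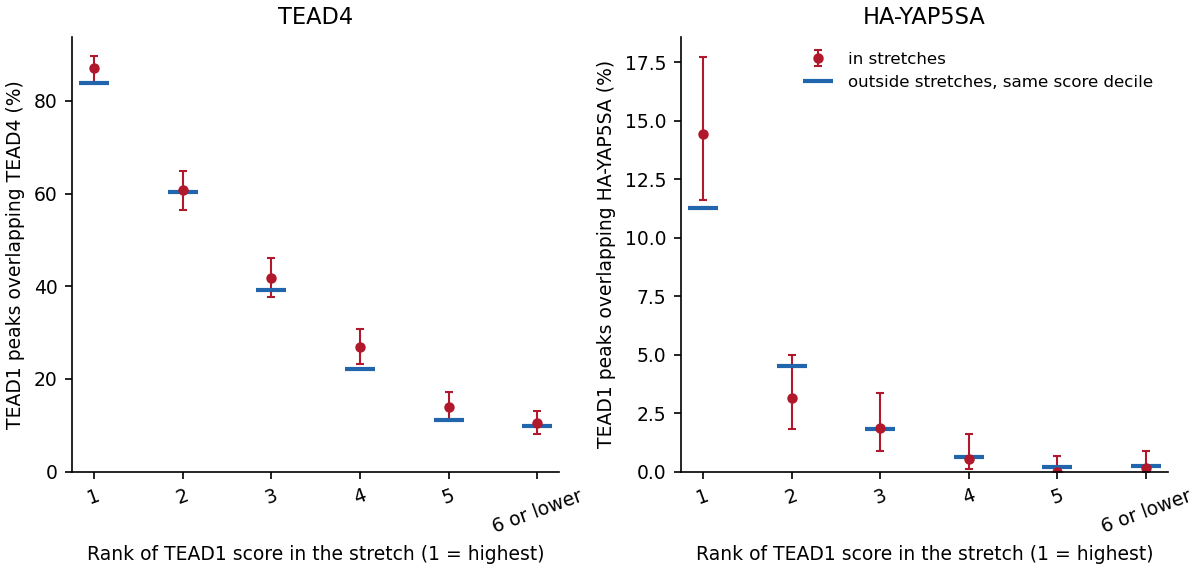
Percent of TEAD1 peaks overlapping TEAD4 (left) or HA-YAP5SA (right) by rank of the TEAD1 score in the stretch, with exact 95% intervals in red; the blue bars give the percent expected from TEAD1 peaks outside stretches in the same score deciles. HA-YAP5SA goes from 14.4% at rank 1 to 3.15% at rank 2, and the blue bars lie just below the red interval for TEAD4 at rank 4 and for HA-YAP5SA at rank 1, and within it elsewhere.

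HA-YAP5SA thus usually marked the highest-scoring TEAD1 peak of its stretch. In 84 stretches a single TEAD1 peak carried HA-YAP5SA, and in 67 of them (79.8%, 69.6 to 87.7%) it was the top-scoring one. If each TEAD1 peak of these stretches were equally likely, the share would be 16.4%. HA-YAP5SA shares rose with the TEAD1 score outside stretches too, so equal likelihood is a reference only. The peak with HA-YAP5SA was at rank 2 in 10 stretches and at rank 3 or lower in 7. In groups of 4 with 1 such peak it was the top in 52 of 56 (92.9%, 82.7 to 98%). It was the top in 94 of 100 groups of 3 (94%) and in 199 of 205 pairs (97.1%), where equal likelihood would give 33.3% and 50%. TEAD4 showed the same order: in the 116 stretches where 1 TEAD1 peak carried TEAD4, it was the top-scoring one in 93 (80.2%, 71.7 to 87.0%).

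The strength of the top TEAD1 peak went with the presence of HA-YAP5SA. Stretches with HA-YAP5SA had a median highest TEAD1 score of 1389 (quartiles 997 and 1758), against 691 (quartiles 458 and 999) in the 445 without. Their median number of TEAD1 peaks was 6, against 5, and their median span was 23.7 kb, against 23.5 kb. TEAD4 lay on a median of 50% of their TEAD1 peaks, against 40%. HA-YAP5SA lay in 33 of the 57 stretches (57.9%, 44.1 to 70.9%) whose top TEAD1 peak was in the highest 1% of all TEAD1 scores, and in 2 of the 87 (2.30%, 0.280 to 8.06%) whose top peak was no higher than the 80th percentile.

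A top score near the limit of the list did not always come with HA-YAP5SA. Among top peaks in the highest 1% of TEAD1 scores, 31 of 57 carried it (54.4%, 40.7 to 67.6%), against 199 of 321 TEAD1 peaks outside stretches in that range (62.0%, 56.4 to 67.3%). The highest top scores without HA-YAP5SA were 3027 on chromosome 1 (95102001 to 95126994), 2912 on chromosome 22 (30579785 to 30608913) and 2724 on chromosome 17 (53499972 to 53532816), each in a stretch of 5 TEAD1 peaks with 4, 2 and 3 TEAD4 peaks in that order.

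For TEAD4 the ends and the inside of a stretch were alike to within counting error. It lay on 424 of the 1080 first or last TEAD1 peaks (39.3%, 36.3 to 42.2%), against 885 of the 2242 inner ones (39.5%, 37.4 to 41.5%). HA-YAP5SA lay on 26 end peaks (2.41%), against 83 inner ones (3.70%). The top-scoring TEAD1 peak was the first or last of its stretch in 168 of 540 (31.1%, 27.2 to 35.2%), where equal placing would give 34.4%. Along a stretch, both members of a neighbouring pair of TEAD1 peaks carried TEAD4 in 437 of 2782 pairs (15.7%, 14.4 to 17.1%). Independent placing at the overall TEAD4 share would give 15.5%.

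The stretch with the most TEAD1 peaks lay on chromosome 14 (61929485 to 62061617). At the joining distance used, it stood well apart from the others in size. It held 28 TEAD1 peaks over 132 kb, 16 TEAD4 peaks and 4 HA-YAP5SA peaks, the most of any stretch on all 3 counts, and no YAP or TAZ peak. Its TEAD1 scores ran from 82.7 to 1791 with a median of 277, and TEAD4 lay on 15 of the 28. The 4 TEAD1 peaks with HA-YAP5SA had ranks 1, 3, 4 and 9 in the stretch, with TEAD1 scores of 1791, 1201, 1012 and 655. Their HA-YAP5SA scores were 325 (62031301 to 62031876), 208, 81.9 and 114 in the same order. Neighbouring HA-YAP5SA centres in this stretch were 60.5, 11 and 29.7 kb apart. The second-ranked TEAD1 peak, at 62004196 to 62005128 with a score of 1586 and a TEAD4 score of 688, carried no HA-YAP5SA. All 10 of its highest-scoring TEAD1 peaks carried TEAD4.

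The next largest stretches held 15 TEAD1 peaks each. On chromosome 4 (169495701 to 169556144, 60.4 kb) the highest TEAD1 score was 1068 and HA-YAP5SA was absent. Its 7 TEAD4 peaks lay on 5 of the 15 TEAD1 peaks. On chromosome 5 (76081200 to 76135290, 54.1 kb) the highest was 1930, with 6 TEAD4 peaks and 1 HA-YAP5SA peak, and 9 of the 15 TEAD1 peaks had no TEAD4. A stretch of 14 on chromosome 1 (85779485 to 85810018) was shorter, at 30.5 kb, and also carried 1 HA-YAP5SA peak on its top TEAD1 peak of score 1598.

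Of the 4 stretches of 13 TEAD1 peaks, the one on chromosome 1 (172844105 to 172903775) was the richest in partners. TEAD4 lay on 10 of its 13 TEAD1 peaks (76.9%) and HA-YAP5SA on 2, those with TEAD1 scores of 2116 and 1085. The other three, on chromosome 12 (52580060 to 52637660), chromosome 5 (86394912 to 86447865) and chromosome 2 (47402036 to 47453138), had highest scores of 1318, 734 and 1313, TEAD4 on 4, 5 and 5 TEAD1 peaks, and no HA-YAP5SA. With ties ordered by longer span, stretches of 12 on chromosome 8 (118990214 to 119042341) and chromosome 5 (55916939 to 55965410) completed the 10 largest, with 4 and 5 TEAD4 peaks, and HA-YAP5SA at 1 peak in the chromosome 5 stretch. Of these 10 largest stretches, 5 held HA-YAP5SA. The remaining stretch of 12, on chromosome 14 (68925481 to 68973884), was shorter at 48.4 kb, with 6 TEAD4 peaks and no HA-YAP5SA.

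**Figure D5:**
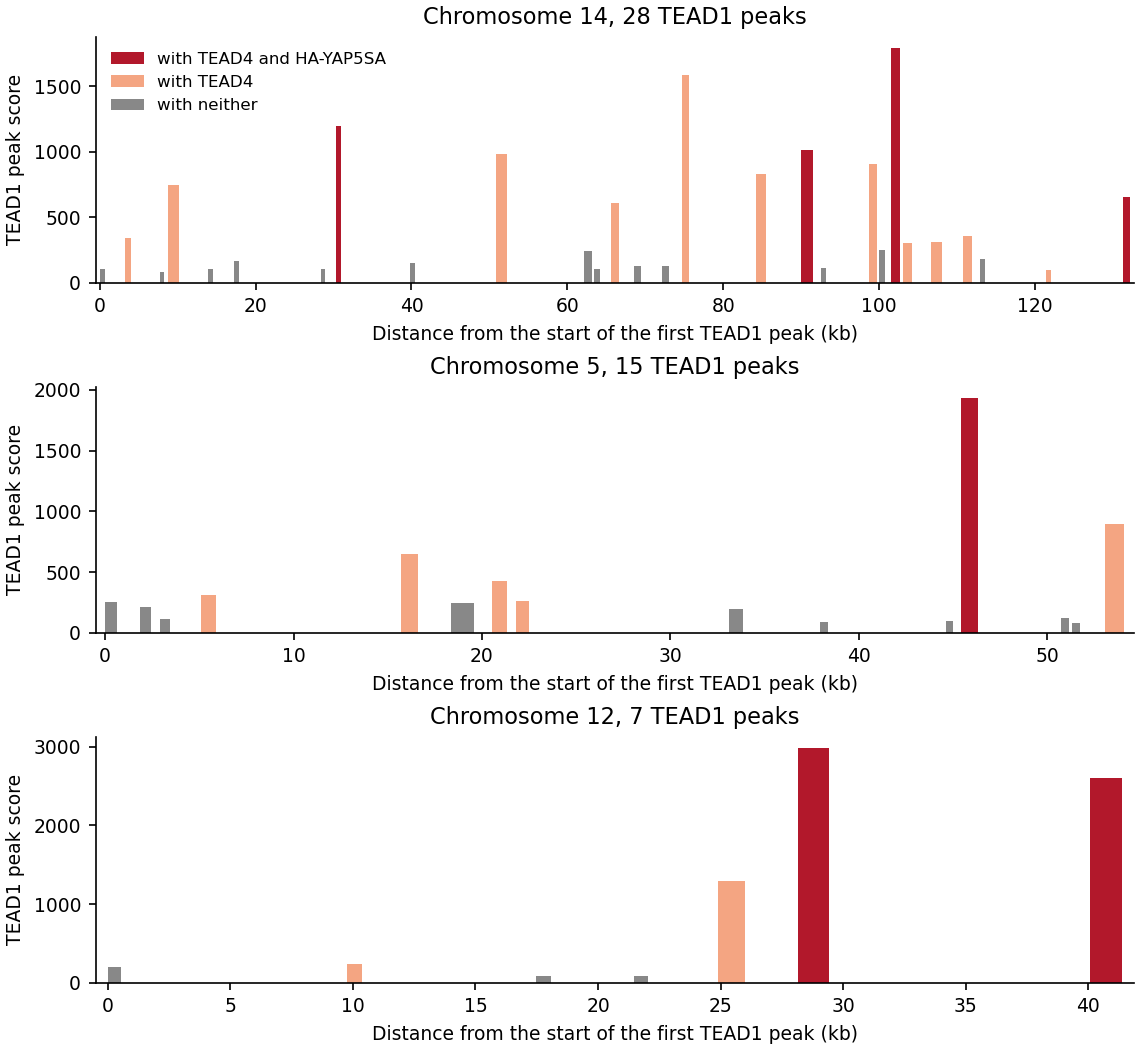
TEAD1 peak scores (vertical axis) along 3 stretches against the distance in kb from the start of their first TEAD1 peak, each bar as wide as its peak. Red bars carry TEAD4 and HA-YAP5SA, orange bars TEAD4, grey bars neither; in the chromosome 5 and chromosome 12 stretches the tallest bar is red, and in the chromosome 14 stretch the tallest is red and the second tallest, at 1586, is orange.

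Long and dense stretches were different regions, which partly follows from the measure, because density is the number of TEAD1 peaks divided by the span. After the chromosome 14 stretch, the longest lay on chromosome 5 (33788363 to 33859830, 71.5 kb, 10 TEAD1 peaks), chromosome 1 (36840083 to 36902919, 62.8 kb, 8 TEAD1 peaks) and chromosome 21 (45005768 to 45066892, 61.1 kb, 11 TEAD1 peaks), none with HA-YAP5SA. The densest, on chromosome 19 (4374530 to 4379851), packed 5 TEAD1 peaks into 5.32 kb, or 9.39 per 10 kb against a median of 2.45. Chromosome 7 (41066667 to 41073360) followed with 8.96 per 10 kb, 6 TEAD1 peaks in 6.69 kb. There the first TEAD1 peak scored 2915 and carried TEAD4 and an HA-YAP5SA peak of score 526, and the other five scored between 80.4 and 155 and carried neither. The next were on chromosome 8 (37000210 to 37005985, 8.66 per 10 kb), chromosome 2 (36788496 to 36796229, 6.46) and chromosome 15 (75458558 to 75468462, 6.06), all without HA-YAP5SA.

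Stretches with several HA-YAP5SA peaks were among those with the strongest TEAD1 peaks. The 12 with at least 2 had a median highest TEAD1 score of 2175 (range 1190 to 3100) and held 3 to 16 TEAD4 peaks. On chromosome 9 (114774346 to 114813466) HA-YAP5SA lay on 3 of 7 TEAD1 peaks, those of score 2637, 1306 and 409. On chromosome 1 (65877915 to 65900903) 3 HA-YAP5SA peaks lay on 2 TEAD1 peaks of score 1524 and 1448. On chromosome 12 (12947582 to 12988944) the TEAD1 peaks of score 2978 and 2607 had HA-YAP5SA peaks of score 469 and 289, 12.1 kb apart. On chromosome 1 (86062572 to 86079003) the TEAD1 peaks of score 3100 and 838 had HA-YAP5SA scores of 316 and 82.4, while the TEAD1 peak between them, of score 1122, had TEAD4 but no HA-YAP5SA. Across the 12 stretches, neighbouring HA-YAP5SA centres were a median of 8.88 kb apart (range 0.229 to 60.5 kb, 16 distances). The shortest distances, 0.229 and 0.251 kb, were each between HA-YAP5SA peaks on the same TEAD1 peak. The first was on chromosome 7 (106410510 to 106420774), where both HA-YAP5SA peaks of the stretch lay on 1 TEAD1 peak.

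The highest TEAD1 scores in any stretch belonged partly to these same regions. They were 3100 and 3027 on chromosome 1, in the stretches at 86062572 to 86079003 and 95102001 to 95126994, 3099 on chromosome 19 (46691092 to 46735727), 2978 on chromosome 12 and 2915 on chromosome 7. On chromosome 19 TEAD4 lay on 6 of 7 TEAD1 peaks and HA-YAP5SA on the peak of score 3099. Of these 5 stretches, 4 carried HA-YAP5SA on the top TEAD1 peak.

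Most of the 7 YAP peaks in stretches lay with HA-YAP5SA, as did most of those on TEAD1 peaks elsewhere. HA-YAP5SA lay on 6 of the 7 TEAD1 peaks with YAP in stretches (85.7%, 42.1 to 99.6%), against 46 of 73 outside (63.0%, 50.9 to 74.0%), with intervals that overlap. In 6 stretches the TEAD1 peak with YAP also carried TEAD4 and HA-YAP5SA, and in 5 of these it was the top-scoring TEAD1 peak. Chromosome 7 had the highest YAP score of the 5, with 119 at 46185048 to 46185272, on a TEAD1 peak of score 2548. It was also the highest YAP score of the 6, at percentile 39.6 of the YAP list. YAP scored 113 on chromosome 5 (119940643 to 119940845) and 111 on chromosome 1 (86072885 to 86073172), on TEAD1 peaks of score 1493 and 3100. It scored 83.5 on chromosome 3 (170463286 to 170463424) and 81.6 on chromosome 12 (12976318 to 12976519), close to the lowest score listed, although their TEAD1 peaks scored 2735 and 2978. The sixth, on chromosome 11 (73851042 to 73851291, YAP score 115), lay on the TEAD1 peak at rank 3 of its stretch. The exception was the highest YAP score in a stretch, 177 on chromosome 9 (72653056 to 72653559), at percentile 61.9 of the YAP list. Its TEAD1 peak scored 82.2, the lowest of 5, and carried neither TEAD4 nor HA-YAP5SA.

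A small set of stretches held no TEAD4 peak. There were 32 (5.93%, 4.09 to 8.26%), with a median highest TEAD1 score of 301 (range 138 to 545), against 807 (range 183 to 3100) in the 508 with TEAD4. Their median span was 22.2 kb, against 23.6 kb in the 508. The ones with the most TEAD1 peaks were on chromosome 3 (45085184 to 45134286, 10 TEAD1 peaks, scores 80.3 to 312) and chromosome 10 (116383588 to 116415490, 10 TEAD1 peaks, scores 99.8 to 468). A further stretch of 7 lay 35.6 kb downstream on chromosome 10 (116451061 to 116475370), also without TEAD4, with scores of 80.6 to 367. Stretches of 7 on chromosome 8 (124532307 to 124565221) and chromosome 2 (87744940 to 87760197) had highest scores of 397 and 328.

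Stretches were spread over 24 chromosomes but not evenly. Over chromosomes 1 to 22 and X, the share of TEAD1 peaks that lay in stretches ran from 2.71% on X to 14.3% on chromosome 20, with a median of 8.02%. Density was counted over the Mb spanned by TEAD1 peaks on each chromosome, not over its full length. TEAD1 peaks per Mb, on which joining by distance depends, were 16.2 on chromosome 1, 14.8 on chromosome 20 and 6.44 on X (median 12.8). Chromosome 17 had the most, 18.1, with 8.93% of its TEAD1 peaks in stretches. The part of this density was not tested. Chromosome 1 held 83 of the 540 stretches (15.4%) and 10.6% of all TEAD1 peaks. HA-YAP5SA lay in 21 of these 83, in 8 of the 23 stretches of chromosome 20 and in 95 of all 540. Chromosomes 1 and 20 held 123 and 22 of the 847 HA-YAP5SA peaks. No stretch lay on a scaffold, and 1 lay on chromosome Y.

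Some stretches were themselves grouped. The next stretch began within 100 kb of the end of 59 stretches, while the median distance to the next was 2000 kb. The most within 1 Mb were 9, in 2 overlapping windows of chromosome 1. The first of these (94156847 to 95126994) held 58 TEAD1 peaks in stretches, 31 TEAD4 peaks and 4 HA-YAP5SA peaks in 4 different stretches. Its closest stretches lay 12.1 kb apart from end to start, so the count of 9 depends on the joining rule. Away from this region, no 1 Mb window held more than 5 stretches.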

How the data were processed

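Peak lists from 5 chromatin immunoprecipitation libraries of HuCCT1 cells were used, 1 library per antibody, grouped by sample title. Per the submitters' processing notes, reads were aligned with Bowtie2 to hg19, with no version given. In the deposited lists, names of peaks start with MACS, a peak caller. The caller's version, threshold and control library were not given in the sources used here. Every deposited score is the authors' own value for a peak, on an unstated scale, and was compared within a list only. A list reflects antibody, depth and threshold together, so list sizes do not measure numbers of sites. Starts were taken as counted from 1 in the TEAD1 and TEAD4 lists, which have named columns, and from 0 in the others.

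TEAD1 peaks were sorted by centre and joined at up to 12500 bp, and groups of 5 or more were kept. A peak was inside a stretch, or on a TEAD1 peak, when at least 1 bp overlapped. Shares have Clopper-Pearson 95% intervals, and 3 was taken as the limit that a count of 0 allows. Expected shares weight those of TEAD1 peaks outside stretches by the score deciles of peaks inside. No test was made. Joining, overlap and weighting were tested on simulated data. Scripts ran under Python 3.11.15 with pandas 2.3.3, SciPy 1.17.1, NumPy 2.4.6 and, for figures, matplotlib 3.10.9.

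The stretches, the lists laid over them and the rule for named regions were chosen with earlier results of these data known. Named were the 10 stretches with most TEAD1 peaks (ties by longer span), the 5 longest, densest, richest in HA-YAP5SA and richest in YAP, the 5 largest without TEAD4 and those with the 5 highest TEAD1 scores. The stretches with TEAD4 on every TEAD1 peak, the top scores without HA-YAP5SA, the sixth and seventh YAP stretch, the highest HA-YAP5SA score, the remaining stretch of 12 and the 1 Mb region were chosen after their values were seen. Alternatives were other joining distances, gaps measured from end to start, stricter overlaps, peaks at or above the median score, chromosomes 1 to 22 and X, and other score or width bins. Nearby genes, promoters and motifs are not analysed here, because that requires hg19 sequence and annotation.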

Additional observations from a re-analysis of the deposited data

How the results depend on the processing

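Under the alternatives, 53 recalculated values stayed within the counting interval of the value reported, or, for the number of stretches, within 1.5 times of it. With each list limited to peaks at or above its median score, 82 stretches were left, 3.06% of HA-YAP5SA peaks lay in them and 0% held a YAP peak. There the HA-YAP5SA share of TEAD1 peaks in stretches was 2.71%, which is -0.974 percentage points relative to TEAD1 peaks outside of the same score decile, the reverse of the 0.242 reported (interval -2.24 to 0.908). This setting leaves fewer TEAD1 peaks to join. The share of HA-YAP5SA peaks in stretches was 10.2% at a joining distance of 10 kb and 16.8% at 15 kb, where 385 and 687 stretches were found. The TEAD4 difference at matched score was 1.24 to 2.42 points under its alternatives, of which 1.62 with deciles of TEAD1 width in place of score and 1.75 with score deciles split by width, an alternative chosen after the data had been seen. HA-YAP5SA lay on the top TEAD1 peak in 79.3 to 84.6% of stretches with 1 such peak. No paired analysis was possible because each antibody had 1 library, so nothing here has a replicate check. The depth of the libraries is unknown, and the 7 YAP peaks in stretches are too few to compare stretch sizes.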

Other observations

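The same joining rule was applied to the other lists. TEAD4 peaks formed 31 groups of 5 or more, the largest with 12 peaks, and 27 of these 31 lay in a stretch of TEAD1 peaks. This largely follows from the lists, because 11835 of the 12188 TEAD4 peaks overlapped a TEAD1 peak. HA-YAP5SA peaks formed no group of 5. They formed 42 groups of 2 or more, of which 10 lay in a TEAD1 stretch, and 3 groups of 3, of which 2 did. The lists differ in length, so these counts do not show which factor is more clustered.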
